A study of Bos taurus with 2 samples.

Results

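The 7 genes described here encode the core of the SREBP system, which controls the transcription of lipid synthesis genes, together with 1 lipogenic nuclear protein. They are SREBF1, SREBF2, SCAP, INSIG1, INSIG2, MBTPS1 and THRSP. They were chosen by name, and every gene probe of the array whose gene name or RefSeq entry carries 1 of these symbols was taken, which gave 18 of 43653 gene probes and 7 of 17376 named genes. The samples were mammary gland tissue of adult Chinese Holstein cows in late lactation, with RNA hybridised in a single colour (Cy3) to an Agilent bovine oligonucleotide array. The group labelled mastitis came from cows with clinical mastitis that had been given antibiotics, and the group labelled normal from healthy cows without them. Mastitis and antibiotic treatment therefore cannot be told apart. No cow in either group had been injected with recombinant bovine somatotropin. The study's design names 3 cows per group, but each group is held by 1 array here and the cow or cows behind it are not named in the labels. The arrays shared a slide and a scan. With 1 array per condition no difference has a replicate check, no p-value is given, and differences between cows are not covered by any error below.

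Sterol regulatory element-binding proteins (SREBPs) are made as inactive precursors in the membrane of the endoplasmic reticulum. When sterols are scarce, the escort protein SCAP carries the precursor to the Golgi, where the site-1 and site-2 proteases release the part that enters the nucleus. When sterols are plentiful, the INSIG proteins hold SCAP and the precursor back. SREBP-1, from SREBF1, mainly drives genes of fatty acid and triglyceride synthesis, and SREBP-2, from SREBF2, mainly those of cholesterol synthesis and uptake. In the lactating mammary gland this system is known as a regulator of milk fat synthesis, and THRSP, called Spot 14, supports fatty acid synthesis in lipogenic tissues.

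The signal of a probe is the median brightness of its spot less the average of the negative controls, here called the net signal. A probe counted as well above background above a net signal of 7.10 on mastitis and 8.74 on normal, which is 2.6 SD above the mean of 153 negative control spots. On mastitis 70.2% of gene probes passed this threshold, and on normal 67.0%. For scaling, the net signals were divided by the 75th percentile over the gene probes of their array, which was 210 on mastitis and 128 on normal. The log2 ratio of a gene is mastitis minus normal, averaged over its probes that were well above background on both arrays. Because of this scaling, a probe with the same net signal on both arrays has a log2 ratio of -0.71. Over the 12473 genes measured in this way, the log2 ratio had a median of -0.15 and quartiles of -0.52 and 0.20. Different probes of a gene had a pooled SD of 0.45 on the log2 scale and replicate spots of 41 probes one of 0.16, and both are technical.

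After scaling, INSIG1 had the lowest log2 ratio of the 7 members, with a level 2.84-fold lower on the mastitis array. THRSP was lower than INSIG1 when only the brightest probe of a gene was used (-1.84 against -1.51), THRSP and SREBF2 were lower without the filter on dim probes (-1.003 and -1.37 against -0.74), and without scaling MBTPS1 (1.15) and INSIG2 (1.05) lay farther from 0 than INSIG1 (-0.79). SREBF1, SREBF2, SCAP and THRSP were 1.61-fold, 1.57-fold, 1.36-fold and 1.66-fold lower, while INSIG2 and MBTPS1 were 1.26-fold and 1.35-fold higher. These sizes are relative to the scaling, without which SREBF1, SREBF2 and SCAP had log2 ratios of 0.03, 0.06 and 0.27 and all genes a median of 0.57. Thus 1 of 7 members reached a 2-fold lower level on mastitis, as did 9.12% of all measured genes. None of the 7 reached a 2-fold higher level, which 2.29% of all measured genes did. At a threshold of 1.5-fold, 4 members were lower (INSIG1, THRSP, SREBF1 and SREBF2) beside 21.6% of all genes, and 0 were higher beside 7.78%. At 3-fold, 0 members were lower beside 3.3% of all genes and 0 were higher beside 0.545%. The median over the 7 members was -0.65 on the log2 scale. Of the 18 member probes, 13 were well above background on both arrays, 2 on 1 array and 3 on neither. In whole tissue, fewer cells of a type and less RNA per cell cannot be told apart.

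**Figure D1:**
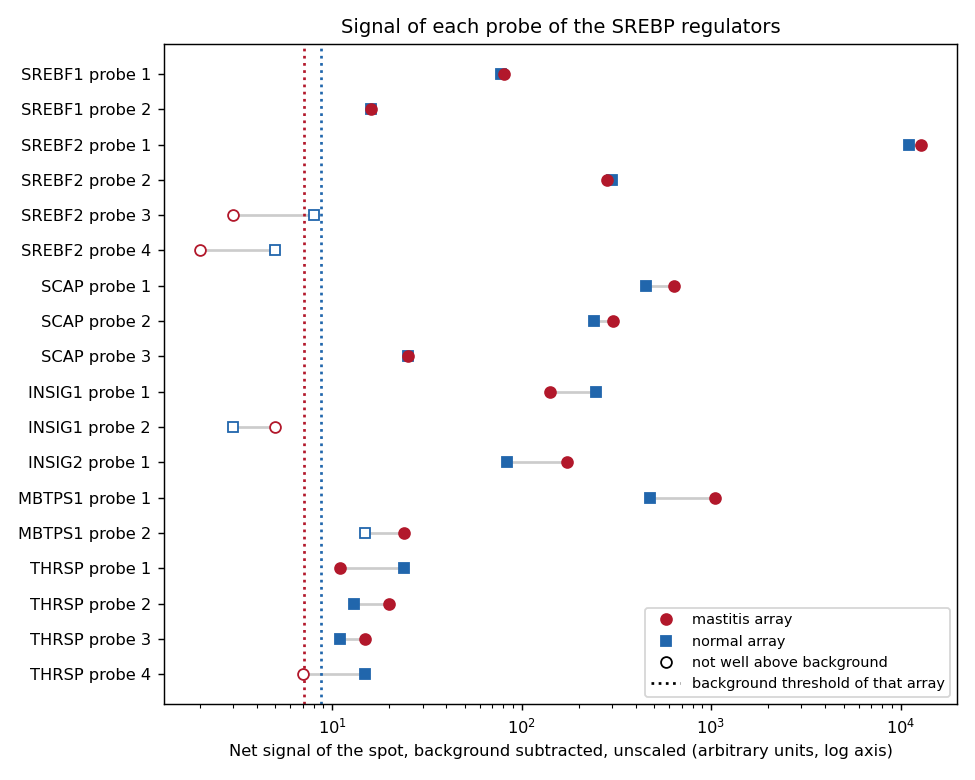
Net signal (horizontal log axis, arbitrary units, before scaling) of each of the 18 probes of the 7 genes, with probes of a gene numbered from the brightest. Circles are the mastitis array, squares the normal array, open symbols are not well above background, and dotted lines mark the background threshold of each array. The 4 THRSP probes lie between 7 and 24 on both arrays, close to the thresholds, and INSIG1 probe 1 lies at 142 on mastitis and 246 on normal.

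The INSIG genes encode the retention proteins of the endoplasmic reticulum, and their ratios had opposite signs. The measured INSIG1 probe had a net signal of 142 on mastitis and 246 on normal, so its signal was lower on the mastitis array even before scaling. After scaling the log2 ratio was -1.51, and 3.78% of all measured genes had a lower one. The other INSIG1 probe had net signals of 5 and 3, not well above background on either array, so the value of INSIG1 rests on a single probe. INSIG1 is itself a well-known target gene of the SREBPs. The INSIG2 probe had a net signal of 174 on mastitis and 84 on normal, with a log2 ratio of 0.34. A further probe, which the array describes as INSIG2 without a gene name and which is therefore not a member, had net signals of 524 and 223 and a log2 ratio of 0.52. The log2 ratios of INSIG2 and INSIG1 lay 1.84 apart, over the pooled SD of 0.45 between probes of a gene, and this difference does not depend on a common scaling of the arrays. Each of the pair rests on 1 member probe, so neither has an SD of its own.

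SREBF1 and SREBF2, the genes of the transcription factors themselves, had close log2 ratios, below 0 with scaling only. The brighter SREBF1 probe had a net signal of 81 on mastitis and 78 on normal, and the dimmer probe had 16 on both. Neither probe was thus lower before scaling, and the log2 ratio of -0.69 (SD 0.04, 2 probes) arises with the scaling. These probes are named by gene and do not separate the SREBP-1 isoforms. The brightest SREBF2 probe had net signals of 12877 and 11081, with no saturated pixel on either array. The next SREBF2 probe had 282 on mastitis and 300 on normal. Their log2 ratios were -0.50 and -0.80, which gave -0.65 for SREBF2 (SD 0.22, 2 probes). The remaining 2 SREBF2 probes stayed near background on both arrays, with net signals of 3 and 2 on mastitis and 8 and 5 on normal. SREBF2 and SREBF1 lay 0.04 apart on the log2 scale, less than the SD between probes of a gene.

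SCAP, the escort that senses sterols, was measured by all 3 of its probes. Their net signals were 638, 305 and 25 on the mastitis array against 454, 242 and 25 on the normal array. The log2 ratios were -0.22, -0.38 and -0.71, so all 3 were below 0 after scaling while none was lower before it. The mean was -0.44 (SD 0.25), and 29.6% of all measured genes had a lower ratio.

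MBTPS1 encodes the site-1 protease, which makes the first cut in the SREBP precursor. Its bright probe had a net signal of 1054 on mastitis and 475 on normal, with a log2 ratio of 0.44. The dim probe had 24 on mastitis, well above background, and 15 on normal, where the scanner software did not find the spot. With that spot kept, MBTPS1 had a log2 ratio of 0.20. MBTPS2, the gene of the site-2 protease, which is no member, had a net signal of 132 on both arrays and a log2 ratio of -0.71 from a single probe. The log2 ratios of the genes of both proteases lay 1.15 apart.

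THRSP was dim on both arrays, and its probes had the largest SD of the members with several measured probes. The net signals of its 4 probes were 11, 20, 15 and 7 on mastitis and 24, 13, 11 and 15 on normal. The probe at 7 was not well above background on mastitis, and the others gave log2 ratios of -1.84, -0.09 and -0.27. The mean of these was -0.73 with an SD of 0.96, larger than the value itself, so the size of the difference could not be settled by these probes. MID1IP1, which encodes a relative of Spot 14 and is no member, had a log2 ratio of -0.07 (SD 0.39, 3 probes).

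Ordered by log2 ratio, INSIG1 lay 0.77 below THRSP, a gap smaller than the SD of 0.96 over the THRSP probes, of which the lowest (-1.84) was below INSIG1. THRSP, SREBF1, SREBF2 and SCAP followed with gaps of 0.05, 0.04 and 0.21, all below the pooled SD over probes of 0.45. INSIG2 lay 0.78 above SCAP, and MBTPS1 0.10 above INSIG2. These gaps are set against technical spread alone, so the order is a description of this pair of arrays.

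**Figure D2:**
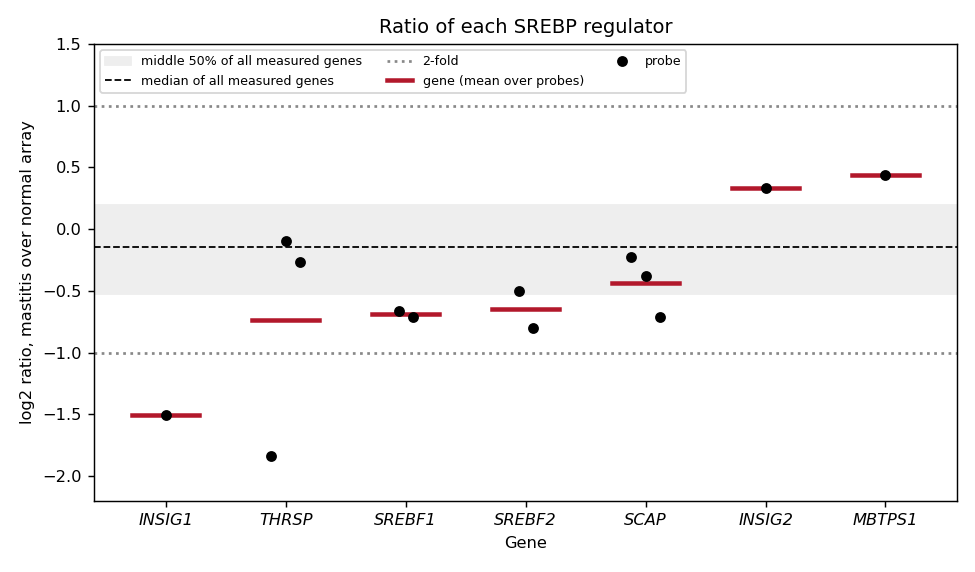
Log2 ratio (vertical axis, mastitis over normal array) of the 7 genes in order. Points are probes well above background on both arrays, bars are gene means, the grey band is the middle 50% of all measured genes (-0.52 to 0.20), the dashed line their median (-0.15) and dotted lines 2-fold. INSIG1 lies below the lower 2-fold line at -1.51, INSIG2 and MBTPS1 lie above the band, and the 3 THRSP probes spread from -1.84 to -0.09.

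The genes around the core were described from lists written from textbook knowledge. Of 24 measured genes of SREBP processing and turnover other than the members, 21 were within 2-fold, 3 were lower by at least that much on mastitis and 0 were higher, with a median log2 ratio of -0.23. The share at least 2-fold lower was 12.5%, near the 9.12% of all genes. Without scaling 0 of this list were lower and 5 higher, beside 2.65% and 20.2% of all genes. The median and spike-in scalings each gave 1 lower, beside 6.66% and 5.75% of all genes. The lowest were TMEM97, a sterol-regulated membrane protein gene (-1.39, SD 0.06, 3 probes), NPLOC4 of the extraction complex of the endoplasmic reticulum (-1.13, a single dim probe) and the chaperone gene HSPA5 (-1.12, SD 0.20, 4 probes). The highest were the deacetylase gene SIRT1 (0.68, SD 0.25, 3 probes) and PGRMC1, which encodes a partner of the SCAP and INSIG complex (0.48, SD 0.14, 3 probes). Vesicles with a COPII coat carry SCAP and the precursor to the Golgi. Of 12 COPII genes, 2 (16.7%) were lower by 2-fold or more, beside 9.12% of all genes. By the same measure 0 were higher, beside 2.29% of all genes, and the list median was -0.37. With the brightest probe of each gene, 0 COPII genes were lower by 2-fold or more, beside 9.31% of all genes. SEC24C was lowest at -1.91 with probes that disagreed widely (SD 2.13, 4 probes), followed by SEC23B (-1.30, SD 0.41, 3 probes) and SAR1B (-0.96, SD 0.90, 2 probes). SEC24B (0.66, SD 0.18, 2 probes) and SEC24A (0.12, SD 0.25, 5 probes) were highest.

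The list of regulators upstream of the SREBP genes also holds known target genes of the sterol receptor LXR. ABCA1, 1 of these targets, was the only gene of the list that was higher by 2-fold or more. The 24 measured genes of the list had a median of -0.25. Of these, 2 were lower by at least 2-fold and 1 higher, beside 9.12% and 2.29% of all genes. This balance turned with the scaling, to 1 lower and 4 higher with the median or the spike-in probes, 1 and 3 with quantile normalization and 1 and 6 without scaling. The shares of all genes moved the same way. They were 6.66% lower and 3.46% higher with the median, 5.75% and 4.79% with the spike-in probes, 6.1% and 3.61% with quantile normalization and 2.65% and 20.2% without scaling. STAT5B and STAT5A, which carry the prolactin signal, had log2 ratios of -1.81 (a single probe) and -1.11 (SD 0.30, 2 probes). NR1H3 encodes the sterol receptor LXR alpha, an activator of SREBF1 transcription, and its net signals were 1039 and 83 on the mastitis array against 332 and 28 on the normal array in its measured probes. NR1H3 thus had a log2 ratio of 0.89 (SD 0.06, 2 probes), while SREBF1 had -0.69. Of the known LXR target genes in this list, ABCA1 and MYLIP were highest at 1.08 (a single probe) and 0.98 (SD 0.33, 2 probes), while ABCG1 was among the 3 lowest at -0.71 (a single probe, net signal 99 on both arrays). PPARG, a lipogenic nuclear receptor gene, had a log2 ratio of 0.33 (SD 0.04, 2 probes). MLXIPL, which encodes the carbohydrate-responsive factor ChREBP, had a single probe with net signals of 12 on mastitis and 14 on normal. On mastitis its spot counted as not found, so it was well above background on the normal array alone. Its scaled signal was 1.91-fold lower on mastitis, which is no bound because the 12 is its own signal there.

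As lists, the known targets of the SREBPs had lower median ratios than SREBF1 (-0.69) and SREBF2 (-0.65) themselves. Each of these gaps was smaller than the pooled SD of 0.45 between probes of a gene. Without the filter on dim probes SREBF2 (-1.37) was below both list medians (-1.02 each). Of 20 measured genes of cholesterol synthesis and uptake, 9 (45.0%) were lower by at least 2-fold and 0 higher, beside 9.12% and 2.29% of all genes. The median log2 ratio was -0.85 and all 20 lay below 0, while without scaling the median was -0.13. PMVK, CYP51A1 and IDI1, which encode enzymes of cholesterol synthesis, were lowest at -2.50 (SD 0.48), -2.36 (SD 0.32) and -2.26 (SD 0.01), each from 2 probes. SQLE, which encodes a rate-limiting enzyme of the later pathway, had -1.90 from a single probe. FDFT1, the squalene synthase gene, was highest at -0.40 (SD 0.48, 3 probes).

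Of 18 measured genes of fatty acid and triglyceride synthesis, INSIG1 left aside, 10 (55.6%) were lower by at least 2-fold and 0 higher. Of all genes 9.12% were lower and 2.29% higher by that much. The median of the 18 was -1.05. With INSIG1 counted, 8 of 19 were lower and 2 higher under the spike-in scaling, beside 5.75% and 4.79% of all genes. Without scaling 5 were lower and 3 higher, beside 2.65% and 20.2% of all genes. The desaturase gene SCD was lowest at -4.79 (SD 0.39, 6 probes), followed by FADS1 at -2.90 and ACSS2 at -2.80 from single probes. FASN, the fatty acid synthase gene, had -1.74 (SD 0.22, 5 probes), and ACACA, of the carboxylase that supplies it, -1.33 (SD 0.28, 2 probes). The elongase genes ELOVL5 (0.99, a single probe) and ELOVL6 (0.78, SD 0.36, 3 probes) were highest. The log2 ratios of INSIG1 (-1.51), SREBF1 (-0.69) and SREBF2 (-0.65) all lay within the range of both target lists, that of INSIG1 below both medians and those of SREBF1 and SREBF2 above them.

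**Figure D3:**
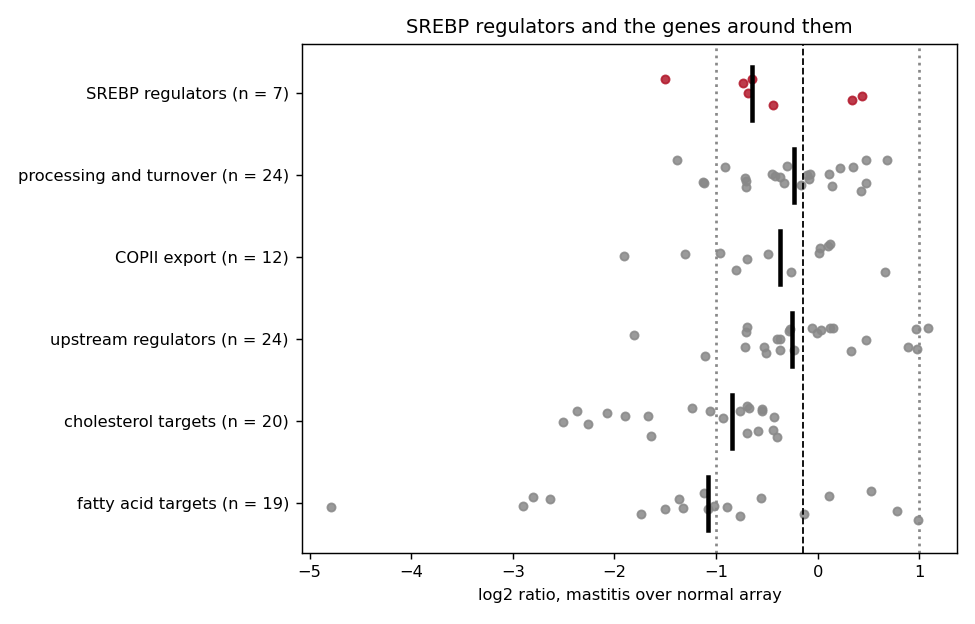
The horizontal axis is the log2 ratio of mastitis over normal, and each point is a gene of 1 of 6 lists, spread vertically for legibility, with the 7 SREBP regulators in red. Thick bars are list medians, the dashed line stands at -0.15 (all genes) and dotted lines at 2-fold. The medians of the cholesterol and fatty acid targets (-0.85 and -1.08, the latter with INSIG1) lie to the left of those of the processing, COPII and upstream lists (-0.23, -0.37 and -0.25).

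Markers of cell types were read beside the members. Of 14 measured luminal epithelial markers, 11 were within 2-fold and the other 3 lower (21.4%, beside 9.12% of all genes), and the median was -0.14. Their summed scaled signal was 105 on mastitis and 158 on normal (in units of the 75th percentile). Their log2 ratios ran from -3.40 (MUC1) to 0.97 (KRT18), with 7 below 0 and the other 7 above it, and those of SREBF1, SREBF2 and INSIG1 lay within that range. Of 8 measured adipocyte markers, 5 (62.5%) were lower by at least 2-fold, beside 9.12% of all genes, with a median of -1.62. These 5 were CIDEA, GPD1, LPL, LEP and CIDEC, and LEP was near background with net signals of 9 on mastitis and 17 on normal. Whether these genes are active in adipocytes alone was not tested, so the median is no count of adipocytes. The summed signals of the 8 markers were 69.6 on mastitis and 79.0 on normal. FABP4 was the brightest of them, with net signals of 12934 and 7277, and made up most of both sums. The log2 ratios of the 8 markers ran from -3.66 (CIDEA) to 0.12 (FABP4), with CFD at -0.11. Of the 4 adipocyte markers not measured on both arrays, ADIPOQ and AQP7 were not well above background on either. PLIN1 was so on mastitis alone, and PLIN4 on normal alone. The net signals of the PLIN1 probes were 11 and 2 on mastitis against 3 and 6 on normal. Those of PLIN4 were 8 on mastitis, where its spot counted as not found, and 18 on normal. PLIN4 was thus 3.69-fold lower on mastitis after scaling. The medians were 0.23 for 7 myoepithelial, 0.16 for 8 fibroblast, 0.38 for 8 endothelial and -0.22 for 14 leukocyte markers, with summed signals of 51.7, 42.1, 19.9 and 62.5 on mastitis against 60.1, 37.4, 15.0 and 57.0 on normal. The part of cell composition in the members' ratios was not tested.

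The sign of some members depended on the scaling between arrays. A common scaling factor shifts all genes alike, so the position of a member against their median cannot change with it. No scaling and scaling by the median, the spike-in probes or the percentile over shared probes are therefore no check on that position. Leaving aside the authors' log2 table with its rows as deposited, which are displaced by 1 probe and gave INSIG1 0.00, INSIG1 was below 0 in each of 13 other settings, between -1.62 and -0.74, and INSIG2 and MBTPS1 were above 0 and above the median of all genes wherever they had a value in these settings, between 0.19 and 1.05 and between 0.20 and 1.15. SREBF1, SREBF2 and SCAP were below the median of all genes in each of the 13, but above 0 without scaling between arrays, at 0.03, 0.06 and 0.27. INSIG1 was at least 2-fold lower in 11 of the 13, the exceptions being no scaling (-0.79) and no filter on dim probes (-0.74), which averages in its probe below background. Because INSIG1 has 1 measured probe, settings that only choose or average probes returned the same -1.51 and are no check on it. They were flagged spots kept, brightest probe, median over probes, probes named by accession and a net signal of at least 50. The same holds for INSIG2 and MBTPS1, each with 1 measured probe. INSIG2 stayed at 0.34 with flagged spots kept, brightest probe, median over probes, a net signal of at least 50 and no filter. MBTPS1 stayed at 0.44 with brightest probe, median over probes, probes named by accession and a net signal of at least 50. THRSP ran from -1.84 with its brightest probe alone to -0.02 without scaling.

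**Figure D4:**
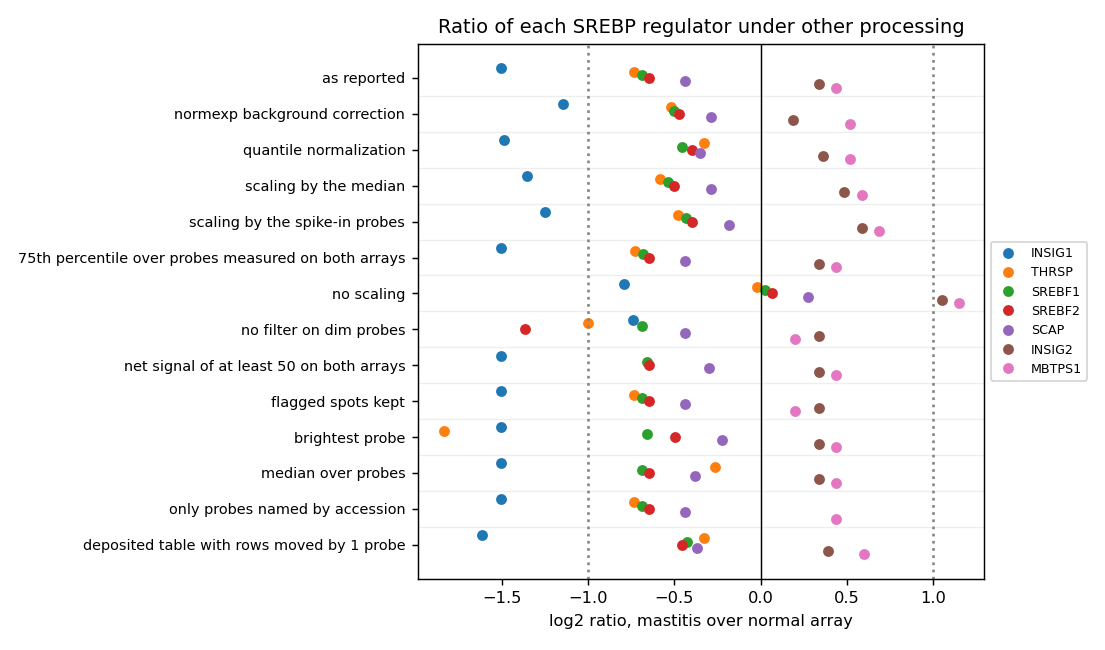
Log2 ratio (horizontal axis, mastitis over normal array) of the 7 genes as reported and under 13 other ways of processing the same signals, 1 row each. Points are genes, the solid line marks 0 and dotted lines 2-fold, and a gene with no value in a setting has no point. INSIG1 lies between -1.62 and -0.74 and INSIG2 and MBTPS1 lie to the right of 0 in every row, while SREBF1, SREBF2 and SCAP pass 0 in the row without scaling.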

How the data were processed

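The authors deposited, per the file headers, GenePix Pro 6.1 readings of an Agilent bovine array, with the intensity of each spot less the mean of the negative controls, unscaled. The deposited files give a percent of saturated pixels and a flag score for each spot as well. Agilent Feature Extraction, named in the submitters' processing notes, and an Affymetrix chip, named in the methods, do not match these headers. The labels and the methods also name different RNA kits. A deposited table of the authors' log2 values has column medians of 4.34 (mastitis) and 4.29 (normal). Its method and centring are not given in the sources used here, its scale and direction were set against the scanner signal, and it followed that signal only after its rows were moved by 1 probe (Spearman 1.00, against 0.10 as deposited), so it served as an alternative.

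Spots flagged as not found and control spots were left out, and arrays were scaled by their 75th percentiles. Probes were named through a RefSeq table (assembly ARS-UCD2.0, no coordinates taken) (28562 by accession, 5113 by symbol, 138 by synonym, 1388 by the name in the files, 8452 without a gene). The members and gene lists were chosen with earlier results of these data known. Named were all members, the 3 lowest and 2 highest genes of each pathway list and a set of fixed genes, of which some are not reported here. ADIPOQ, AQP7, PLIN1 and PLIN4 were chosen after their values were seen. No likeness between genes was computed over 2 arrays. The code was tested on simulated data. Python 3.11.15, numpy 2.4.6, pandas 2.3.3 and limma 3.58.1 in R 4.3.3 were used. The number of arrays limits the precision.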

Additional observations from a re-analysis of the deposited data

How the results depend on the processing

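Of 282 values recomputed for 20 results under 16 settings, 242 stayed within the pooled SD over probes (or, for counts, within 1.5 times). The 242 include values that could hardly move. Scaling by the percentile over shared probes was nearly the main scaling, and choosing or averaging probes leaves a gene with 1 measured probe unchanged. Without scaling, which adds 0.71 to every log2 ratio, SREBF1 was 0.0272, SREBF2 0.0637, SCAP 0.27, INSIG1 -0.79, INSIG2 1.05, MBTPS1 1.15 and THRSP -0.0189, with 0 members at least 2-fold lower and 2 higher. The list medians were then 0.48 (processing), 0.34 (COPII), 0.46 (upstream), -0.13 (cholesterol), -0.37 (fatty acid), 0.58 (luminal), 0.94 (myoepithelial), -0.91 (adipocyte), 0.87 (fibroblast), 1.09 (endothelial) and 0.49 (leukocyte), beside 0.57 for all genes. Without the filter on dim probes SREBF2 was -1.37 and INSIG1 -0.74, with 2 members at least 2-fold lower, beside 22.0% of all genes. With the brightest probe THRSP was -1.84 (2 members lower, beside 9.31% of all genes), and with the median over probes -0.27. The adipocyte median was -0.78 with normexp and -2.17 with a net signal of at least 50. The displaced table as deposited gave SREBF2 0.20, SCAP 0.0633, INSIG1 0.00, INSIG2 -1.47, THRSP -0.25, and medians of 0.10 (COPII), -0.29 (cholesterol), 0.29 (fatty acid), 0.10 (adipocyte) and 0.62 (fibroblast). With a 1.5-fold threshold 4 members were lower (21.6% of all genes) and with 3-fold 0 (3.3%). Normexp lowered the share of all genes at least 2-fold lower to 3.28%, no filter raised it to 3817 of 17376 genes and no scaling gave 2.65% lower and 20.2% higher. Scaling by the median or the spike-in probes moved the median of all genes to 0.004 and 0.11, with 6.66% and 5.75% of genes lower against 3.46% and 4.79% higher. Under normexp, 7 of 20 cholesterol and 6 of 19 fatty acid targets were at least 2-fold lower. No paired analysis was possible because each group has 1 array, and no replicate could be left out. Dim signals limit THRSP most, since none of its probes reached 50 on either array.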
